A study of Mus musculus with 6 samples.

Results

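The genes described here encode 10 subunits of the 2 Polycomb repressive complexes: 6 of PRC2 (Ezh1, Ezh2, Eed, Suz12, Jarid2 and Mtf2) and 4 of PRC1 (Cbx2, Cbx7, Ring1 and Rnf2). They were chosen by name, and their peaks were all those that overlapped the GRCm38 gene record extended by 5 kb on each side by at least 1 bp. They are 10 of 21887 protein-coding genes examined in the same way. The peaks come from native ChIP-seq, in which chromatin is immunoprecipitated without crosslinking, of P19 cells, a mouse embryonal carcinoma line grown in proliferation medium; the labels name no genotype change and no treatment. Chromatin was precipitated with an antibody to crotonylated lysine 9 of histone H3 (H3K9cr) in 2 libraries and with an antibody to acetylated lysine 9 (H3K9ac) in 2 libraries, and the series also has 2 input libraries, which were not analysed here. The replicates are biological replicates per the series' design text. Every library is from the same line and each mark rests on 1 antibody lot, so a property of a mark and a property of its antibody cannot be told apart.

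As background, PRC2 methylates lysine 27 of histone H3. Ezh1 and Ezh2 are its alternative catalytic subunits, Suz12 is its scaffold, Eed binds the methylated product, and Jarid2 and Mtf2 are accessory subunits that help bring the complex to chromatin. PRC1 ubiquitinates histone H2A through the E3 ligases Ring1 and Rnf2, and Cbx2 and Cbx7 are chromodomain subunits that bind methylated lysine 27. Both complexes are known for keeping developmental regulators silent in pluripotent cells. Acetylation and crotonylation of lysine 9 are marks found at the start sites of active genes, so the values below describe the chromatin of the genes that encode the Polycomb proteins and say nothing of where those proteins bind.

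The deposited lists held 28360 and 28345 peaks for the H3K9cr replicates and 26096 and 27474 for the H3K9ac replicates, with median lengths of 1185 to 1246 bp. No read depth is given in the sources used here. Pileup, the authors' coverage signal at a peak's summit, is scaled per library, so a peak is described by its pileup percentile, its rank by pileup within its own list as a percentage of the peaks listed, and the strongest peak of a gene is the one with the highest pileup. Among markers of undifferentiated embryonal carcinoma cells, Pou5f1, Sox2, Nanog, Lin28a and Utf1 had peaks in every library (5 of 5). Among 9 markers of other cell types, Col1a1, Thy1, Rbfox3 and Syn1 had peaks in every library and Alb, Hbb-bt and Ptprc had none in any library. Afp and Myh6 each had a weak peak in H3K9cr replicate 1 alone, at the 5.85th percentile. Of all protein-coding genes, 69.2% had peaks in every library. The neuronal marker Rbfox3 ranked at 73.6 to 78.7, above Nanog at 62.9 to 68.8, so the 2 sets of markers were not fully separated by rank.

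All 10 Polycomb genes had peaks of both marks in every library. The same held for 15149 of the 21887 protein-coding genes, which is 69.2%, so presence alone did not set the Polycomb genes far from the background. The gene windows held 78 peaks, with 20 in each H3K9cr library and 19 in each H3K9ac library. The 40 strongest peaks, 1 per gene and library, were 1272 to 6600 bp long (median 3170 bp) and ranked at the 78.9th to the 99.0th pileup percentile, with a fold enrichment over local background of 45.6 to 210.3. The other 38 peaks were 260 to 4225 bp long (median 909 bp), reached at most the 54.7th percentile and had fold enrichments of 3.35 to 27.5. Overlapping peaks of the 4 lists merged into 20 regions, of which 16 were present in all 4 libraries. The other 4 regions were present in some libraries of each mark or in 1 library, never in both replicates of 1 mark alone, and their peaks reached at most the 19.8th percentile.

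The promoter sequences below, credited to RefSeq on GRCm38.p6, run from 250 bases before to 50 bases after a start site, 5′ to 3′ on the gene's strand. CG dinucleotides are in capitals. They were chosen because the peaks at these sites differ. Ezh2 had the highest pileup rank of the 10 genes, its paralog Ezh1 the shortest strongest peak and Jarid2 the longest peak. At Cbx7 the summit lay upstream of the start site in every library, as it also did at Ring1, whose promoter is not shown. Mtf2 has a first promoter inside its peak and a second one that no peak touched. Their positions are chr6:47594981-47595280 (minus strand) for Ezh2, chr11:101226414-101226713 (minus) for Ezh1, chr13:44730524-44730823 (plus) for Jarid2, chr15:79932597-79932896 (minus) for Cbx7, and chr5:108065424-108065723 and chr5:108077915-108078214 (plus) for the first and the second Mtf2 promoter.
Ezh2: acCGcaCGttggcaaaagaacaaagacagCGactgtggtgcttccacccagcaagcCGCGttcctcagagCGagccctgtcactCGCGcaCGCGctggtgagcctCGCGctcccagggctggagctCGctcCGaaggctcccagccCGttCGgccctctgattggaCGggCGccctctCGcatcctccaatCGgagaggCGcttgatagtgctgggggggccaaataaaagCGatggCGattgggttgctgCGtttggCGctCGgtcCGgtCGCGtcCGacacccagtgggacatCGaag
Ezh1: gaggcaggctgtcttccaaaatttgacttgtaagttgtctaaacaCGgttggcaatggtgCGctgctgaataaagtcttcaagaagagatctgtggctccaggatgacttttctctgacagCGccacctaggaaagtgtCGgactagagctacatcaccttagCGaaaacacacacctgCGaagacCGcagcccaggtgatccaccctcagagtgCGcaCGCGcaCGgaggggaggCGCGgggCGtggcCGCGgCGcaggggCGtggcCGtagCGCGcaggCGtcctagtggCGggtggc
Jarid2: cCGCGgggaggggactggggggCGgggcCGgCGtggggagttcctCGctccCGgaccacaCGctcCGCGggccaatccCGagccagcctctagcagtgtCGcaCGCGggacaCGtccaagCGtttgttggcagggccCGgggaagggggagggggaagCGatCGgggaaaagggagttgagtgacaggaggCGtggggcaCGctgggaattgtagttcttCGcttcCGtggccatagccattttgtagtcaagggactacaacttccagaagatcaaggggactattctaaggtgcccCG
Cbx7: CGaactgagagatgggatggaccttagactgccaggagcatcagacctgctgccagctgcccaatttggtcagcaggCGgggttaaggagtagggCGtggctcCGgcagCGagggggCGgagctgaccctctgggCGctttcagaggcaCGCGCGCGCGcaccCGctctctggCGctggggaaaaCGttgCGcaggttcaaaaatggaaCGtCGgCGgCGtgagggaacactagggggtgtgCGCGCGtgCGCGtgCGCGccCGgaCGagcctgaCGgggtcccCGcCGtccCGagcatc
Mtf2, first promoter: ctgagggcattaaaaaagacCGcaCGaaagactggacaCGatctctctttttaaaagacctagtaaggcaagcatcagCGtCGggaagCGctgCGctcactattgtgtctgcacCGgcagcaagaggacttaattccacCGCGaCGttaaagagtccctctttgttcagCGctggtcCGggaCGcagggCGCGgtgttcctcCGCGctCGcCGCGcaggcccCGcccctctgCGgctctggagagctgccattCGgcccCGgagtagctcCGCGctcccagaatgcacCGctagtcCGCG
Mtf2, second promoter: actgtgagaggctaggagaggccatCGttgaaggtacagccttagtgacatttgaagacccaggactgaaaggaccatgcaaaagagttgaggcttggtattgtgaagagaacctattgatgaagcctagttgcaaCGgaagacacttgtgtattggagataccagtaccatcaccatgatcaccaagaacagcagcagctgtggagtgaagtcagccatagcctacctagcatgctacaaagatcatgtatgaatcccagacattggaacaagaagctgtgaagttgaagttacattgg

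RefSeq promoters were matched for 9 of the 10 genes, 11 promoters in all, and 10 of these carried a peak in every library. Of all 21263 promoters of protein-coding genes, 58.7% carried a peak in every library and 38.2% in none. In 9 of the 11, all 300 bases lay inside a peak in every library. At Ezh1 285 and 264 bases were covered in the H3K9cr replicates and 300 and 264 in the H3K9ac replicates, since its peak began close to the start site. The second Mtf2 promoter had 0 covered bases in every library.

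The covered promoters held 17 (Eed) to 41 (Suz12) CG dinucleotides, with a median of 30. The uncovered second Mtf2 promoter held 2, and 11.4% of all promoters held fewer. Across all promoters the median was 22 CG dinucleotides where every library had a peak and 3 where none had, so the uncovered Mtf2 promoter was also the one poor in CG. Each motif was searched on both strands. The GC box GGGCGG was in 7 of the 11 promoters (63.6%) and in 46.2% of all promoters, CCAAT in 7 against 38.2%, TATAAA in 1 (9.09%) against 12.6%, and CCGGAAG in none against 11.6%. An E2F motif, searched as TTTCGCGC, TTTGGCGC, TTTCCCGC or TTTGCCGC, was found at Ezh2 and Suz12 (18.2%) and in 2.85% of all promoters. The NRF1 motif was in none of the 11 and in 1.33% of all promoters. These matches are descriptions of the letters in a window of 300 bases. The set of all promoters includes those without a peak, which are poor in CG. Motif shares among promoters with peaks alone were not computed, so an excess over all promoters cannot be called particular to the Polycomb genes.

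**Figure D1:**
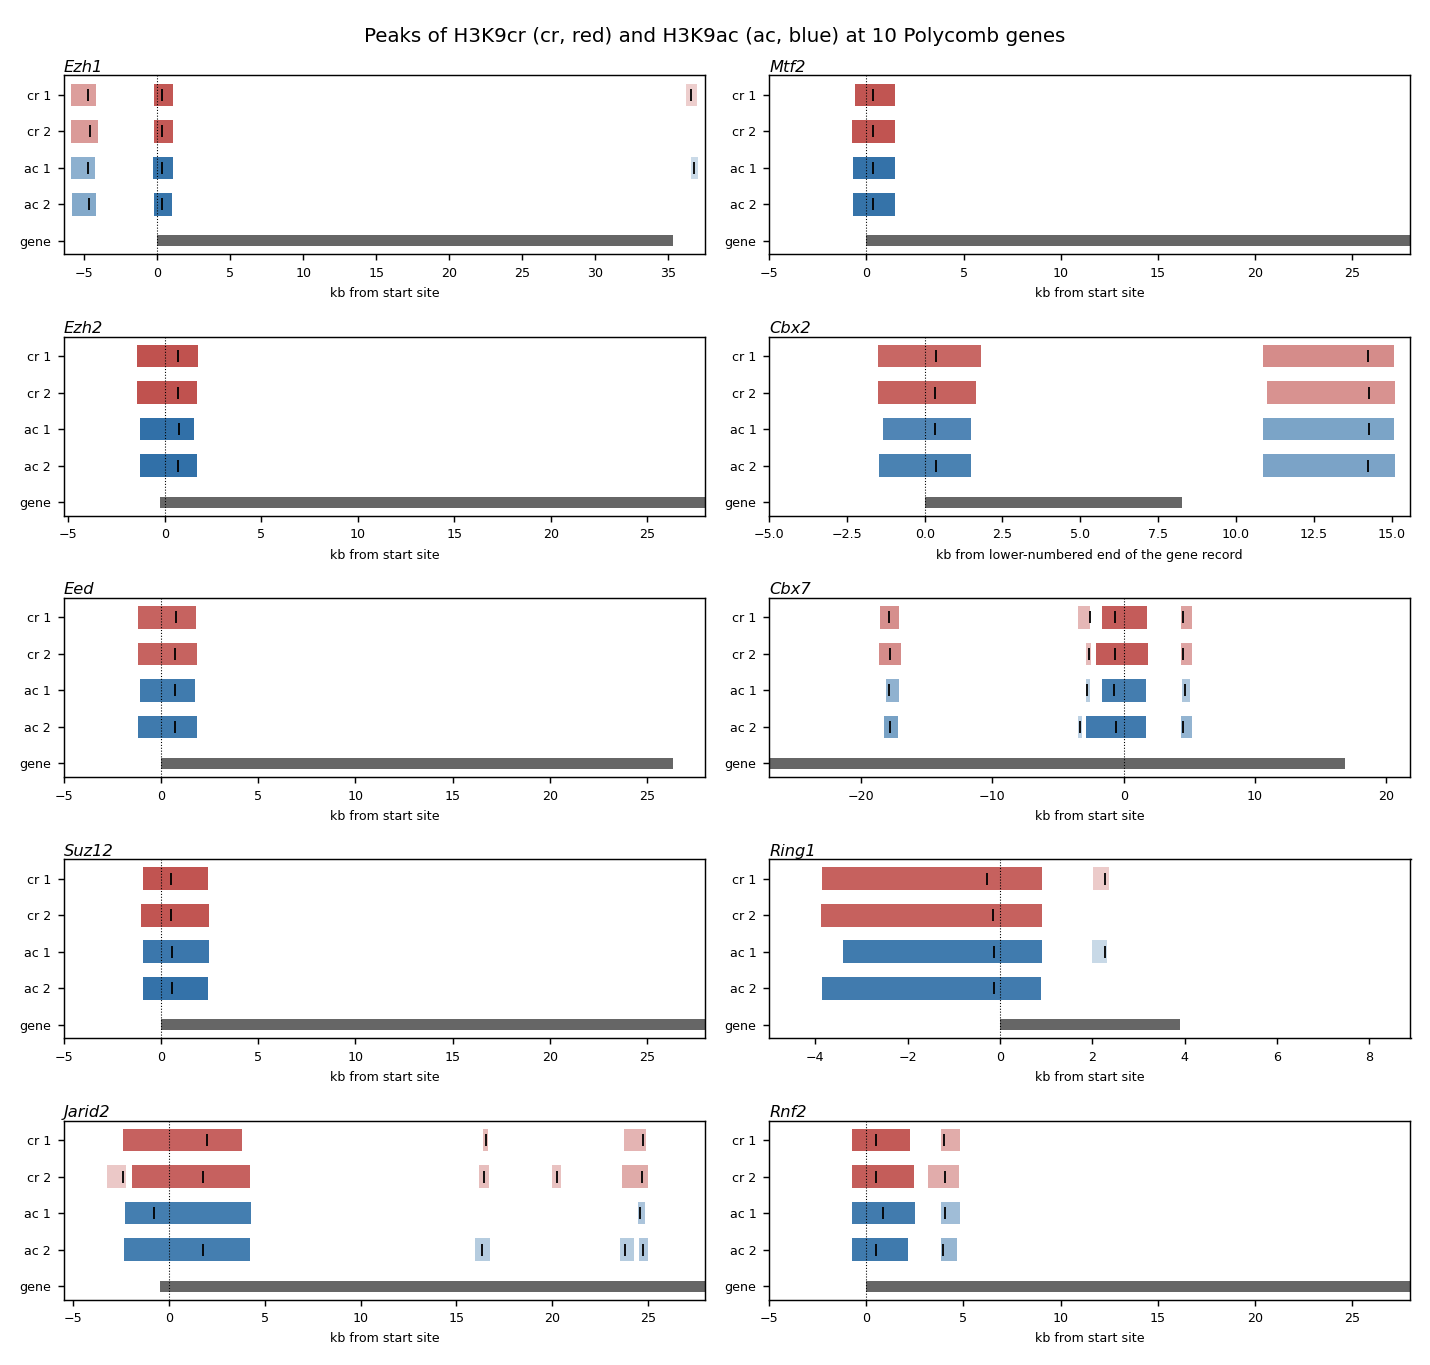
Peaks of each library (rows: H3K9cr replicates 1 and 2 in red, H3K9ac replicates 1 and 2 in blue) at the 10 genes, with the horizontal axis in kb from the RefSeq start site (for Jarid2 and Mtf2 the one used in the text for the summits), positive in the direction of transcription, and for Cbx2, which has no entry there, from the lower-numbered end of its gene record. A darker bar has a higher pileup percentile, the black tick is the summit and the grey bar is the gene record, cut at the edge of the panel where the record is longer; the strongest peak lies over the start site in all 4 libraries at the 9 genes with one, and the peaks seen in 1 or 2 libraries are short and pale.

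Among the catalytic subunits of PRC2, Ezh2 (chr6:47530274-47595270, minus strand) carried a single peak in each library. Its length was 3179 and 3119 bp in the H3K9cr replicates and 2791 and 2947 bp in the H3K9ac replicates. Its pileup percentile was 98.6 and 98.2 for H3K9cr and 98.9 and 99.0 for H3K9ac, and its fold enrichment was 167 and 167 for H3K9cr and 149.6 and 210.3 for H3K9ac. The groups did not overlap in either measure: the peak was longer in both H3K9cr libraries, and its pileup ranked higher in both H3K9ac libraries. Of the 15149 genes with a peak in every library, 96.7% had a lower mean pileup percentile than Ezh2. The summit lay 656 to 712 bp downstream of the start site.

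Ezh1 (chr11:101191115-101226463, minus strand), the other catalytic subunit, had a short and high peak at its start site. Its length was 1299 and 1295 bp in the H3K9cr replicates and 1374 and 1272 bp in the H3K9ac replicates. The pileup percentile was 94.7 and 93.2 for H3K9cr and 95.9 and 96.0 for H3K9ac. Lengths overlapped between the marks, whereas pileup ranked higher in both H3K9ac libraries. A shorter strongest peak was found at 19.6% of the genes and a lower pileup percentile at 87.2%. The summit position varied by 4 bp over the 4 libraries, from 365 to 369 bp downstream of the start site.

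The fold enrichment at Ezh1 did not follow the marks. It was 117 and 45.6 in the H3K9cr replicates and 106 and 59.1 in the H3K9ac replicates, so both replicates numbered 1 were above both numbered 2. The local background implied by the deposited values, computed as pileup plus 1 divided by fold enrichment, minus 1, was 2.16 and 7.0 for H3K9cr and 1.79 and 7.0 for H3K9ac. Suz12 had the same order, with 1.91 and 5.0 for H3K9cr and 1.58 and 5.0 for H3K9ac. At the other 8 genes replicate 2 had 0.678 to 1.504 times the implied background of replicate 1. The implied background is in units of pileup, which is scaled per library, so it is not strictly comparable between lists. The part of this background in the fold enrichments was not tested, and pileup ranks do not contain it.

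Ezh1 also had a peak upstream, within chr11:101230488-101232341, that was 1694 and 1834 bp long for H3K9cr against 1586 and 1636 bp for H3K9ac at the 39.5th to the 46.0th percentile. A weak peak just beyond its 3′ end was listed in the replicates numbered 1 only, with 759 bp for H3K9cr at the 4.02nd percentile and 484 bp for H3K9ac at the 0.0996th. This weak peak lay inside the record of the neighbouring gene Cntnap1, and its summit was nearer to an end of that record than to Ezh1. The absence of a peak from a list does not show that the mark was absent, since the authors' threshold decides it.

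Eed and Suz12, the reader and the scaffold of PRC2, each carried 1 peak in every library. Eed (chr7:89954654-89980976, minus strand) had lengths of 3029 and 3049 bp for H3K9cr against 2839 and 3045 bp for H3K9ac. Its pileup percentile was 85.9 and 86.0 for H3K9cr and 88.8 and 90.0 for H3K9ac. Lengths overlapped, and pileup ranked higher in both H3K9ac libraries. The Eed promoter held the fewest CG dinucleotides of the covered ones.

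Suz12 (chr11:79993106-80034123, plus strand) had lengths of 3352 and 3500 bp for H3K9cr against 3398 and 3371 bp for H3K9ac. Its pileup percentile was 96.8 and 96.3 for H3K9cr and 92.2 and 96.9 for H3K9ac. The marks overlapped in both measures, and the single low pileup rank was that of H3K9ac replicate 1. Without that library the difference between the marks in the normal score of the pileup rank (H3K9cr minus H3K9ac) was -0.060 in place of 0.14. The summits at Eed and Suz12 varied by 36 and 34 bp over the 4 libraries, near the median of 47 bp over 6409 genes with a single promoter inside the strongest peak.

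Jarid2 (chr13:44730774-44921643, plus strand), the accessory subunit, had the longest peak of the 10 genes. Its length was 6233 and 6175 bp in the H3K9cr replicates and 6600 and 6549 bp in the H3K9ac replicates, so it was longer in both H3K9ac libraries. A shorter strongest peak was found at 99.4% of the genes. Its pileup percentile was 86.8 and 87.2 for H3K9cr and 86.3 and 86.2 for H3K9ac, higher in both H3K9cr libraries by less than 1 percentile point. The long peak held both RefSeq promoters in every library. Relative to the second of its start sites, at position 44731271, the summit lay at -797 bp, upstream of both, in H3K9ac replicate 1 and 1757 to 1972 bp downstream in the other 3 libraries, the widest spread of summits among the genes.

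The further peaks in the Jarid2 window were weak and varied between libraries, with 3 and 5 peaks in the window for H3K9cr and 2 and 4 for H3K9ac. The outermost, within chr13:44754824-44756288, was found in every library, split into a pair in H3K9ac replicate 2, at the 13.6th to the 30.2nd percentile. The window was covered over 7639 and 9462 bp by H3K9cr and over 6974 and 8502 bp by H3K9ac, and the marks overlapped. By the Euclidean distance over log2 covered length and the normal score of the pileup rank in the 4 libraries, the genes most like Jarid2 among 15148 others were Lin28a (distance 0.283), Rbfox2 (0.292) and Klc4 (0.300). The length of single peaks does not enter this distance. The strongest peak of Lin28a was 1643 and 1629 bp long for H3K9cr and 1618 and 1651 bp for H3K9ac, much shorter than that of Jarid2. Those of Rbfox2 and Klc4 were not compared.

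Mtf2 (chr5:108065660-108109219, plus strand), an accessory subunit that binds DNA rich in CG, had 1 peak at its first promoter. The length was 2056 and 2207 bp for H3K9cr against 2167 and 2207 bp for H3K9ac. Its pileup percentile was 96.6 and 96.8 for H3K9cr and 97.1 and 96.5 for H3K9ac. The marks overlapped in both. A lower pileup percentile was found at 91.5% of the genes and a smaller covered length at 38.8%, so the Mtf2 peak, like that of Ezh1, was high and not long. The summit lay 348 to 355 bp downstream of the first start site.

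Among the E3 ligases of PRC1, Ring1 (chr17:34020792-34024680, minus strand) had a peak that lay mostly upstream of the gene. Its length was 4758 and 4785 bp for H3K9cr against 4305 and 4741 bp for H3K9ac. The pileup percentile was 87.6 and 87.5 for H3K9cr and 89.2 and 88.6 for H3K9ac. The peak was longer in both H3K9cr libraries and its pileup ranked higher in both H3K9ac libraries. It reached 3395 to 3878 bp upstream of the start site and 893 to 909 bp downstream, and covered 894 to 910 of the 3889 bp of the Ring1 record and all 2023 bp of the neighbouring record of H2-Ke6 in every library. In every library but H3K9ac replicate 1 the peak also ran into the record of Slc39a7, whose lower-numbered end is at position 34028266. The peak therefore cannot be assigned to Ring1 alone. Its summit lay at -274 to -126 bp, upstream of the Ring1 start site. A second weak peak was listed in the replicates numbered 1 only, with 345 bp for H3K9cr and 330 bp for H3K9ac.

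Rnf2 (chr1:151469398-151500991, minus strand), the other E3 ligase, had its strongest peak over the start site. The length was 3008 and 3168 bp for H3K9cr against 3208 and 2851 bp for H3K9ac, and the marks overlapped. The pileup percentile was 92.8 and 90.3 for H3K9cr and 88.4 and 90.1 for H3K9ac, higher in both H3K9cr libraries by a narrow margin. A second peak within the gene was 986 and 1602 bp long for H3K9cr against 990 and 833 bp for H3K9ac at the 27.5th to the 33.8th percentile.

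Of the chromodomain subunits, Cbx2 (chr11:119023019-119031275) had the lowest pileup rank of the 10 genes. Its strongest peak was 3293 and 3172 bp long for H3K9cr against 2838 and 2950 bp for H3K9ac. The pileup percentile was 83.0 and 86.2 for H3K9cr and 78.9 and 82.7 for H3K9ac. Both measures were higher in both H3K9cr libraries. A lower pileup percentile was found at 59.8% of the genes. A second long peak on the side of Cbx8 measured 4213 and 4125 bp for H3K9cr against 4207 and 4225 bp for H3K9ac, at the 49.4th to the 54.7th percentile. It was also the strongest peak of Cbx8, another chromodomain subunit gene 5028 bp away, in all 4 libraries, so its share in the covered length of Cbx2 is shared with Cbx8.

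Cbx7 (chr15:79915804-79971143, minus strand) had 4 peaks in every library. The strongest was 3430 and 3971 bp long for H3K9cr against 3343 and 4569 bp for H3K9ac. Its pileup percentile was 90.8 and 92.2 for H3K9cr and 87.1 and 89.5 for H3K9ac, higher in both H3K9cr libraries, while lengths overlapped. Its summit lay upstream of the start site shown above, at -753 to -583 bp. This peak covered that start site, at position 79932646, in every library. By its summit, at 79933229 to 79933399, it was closer to the end of the neighbouring Apobec3 record (79918218) than to either end of the Cbx7 record. When peaks nearer to another gene were left out, the mean pileup percentile of Cbx7 was 49.4 in place of 89.9. That setting therefore drops a peak over the start site of Cbx7 itself. The 4569 bp peak of H3K9ac replicate 2 took in a stretch where the other libraries listed a separate weak peak. Another peak, within the Cbx7 record and upstream of that start site (chr15:79949571-79951286), measured 1433 and 1716 bp for H3K9cr against 974 and 1123 bp for H3K9ac at the 38.0th to the 54.3rd percentile. This one was longer in both H3K9cr libraries.

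**Figure D2:**
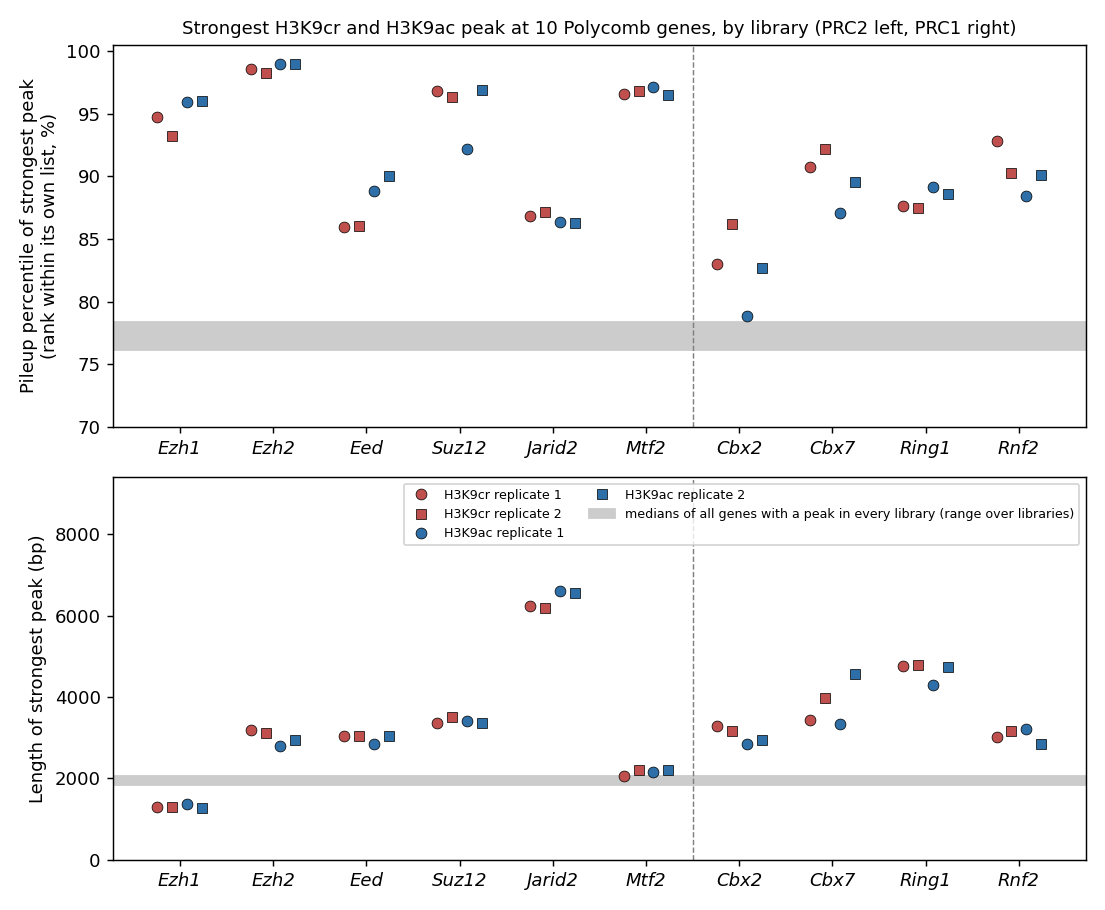
Pileup percentile (upper panel, % of the peaks of the same list) and length in bp (lower panel) of the strongest peak of each gene, with 1 point per library (red H3K9cr, blue H3K9ac; circles replicate 1, squares replicate 2). The grey band is the range over libraries of the median of all genes with a peak in every library; all points of the upper panel lie above it, Cbx2 in H3K9ac replicate 1 (78.9) the closest, and in the lower panel only Ezh1 lies below it.

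The strongest peak reached farther downstream than upstream of the start site in all 4 libraries at Ezh1, Ezh2, Eed, Suz12, Jarid2, Mtf2 and Rnf2, in 2 libraries at Cbx7 and in none at Ring1. Of 6409 genes with a single promoter inside the strongest peak of every library, 67.8% reached farther downstream in every library, and 78.1% had their summit downstream, with a median position of 293 bp. Summits at Ezh2 (median 666 bp), Eed (735 bp), Suz12 (539 bp) and Rnf2 (493.5 bp) lay beyond the upper quartile of those genes, 369 bp. Ezh1 (368 bp) and Mtf2 (349.5 bp) lay just inside it. Jarid2 (median 1762.5 bp) lay beyond it, apart from H3K9ac replicate 1 at -797 bp. Mtf2 and Jarid2 have 2 promoters each, unlike the genes of this background. The summits at Ring1 (median -139.5 bp) and Cbx7 (-646 bp) lay upstream of the start site in every library.

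In order of the mean pileup percentile over the 4 libraries, Ezh2 stood first and its range did not overlap that of the next gene. Mtf2, Suz12 and Ezh1 followed, each overlapping its neighbour. Below a gap came Rnf2, Cbx7, Ring1, Eed and Jarid2, again with overlapping neighbours, and Cbx2 stood last, its range of 78.9 to 86.2 just below that of Jarid2, 86.2 to 87.2. In order of covered length, Jarid2 stood first with 6974 to 9462 bp, separate from Cbx7 with 5284 to 6908 bp. Mtf2 stood last with 2056 to 2207 bp, and its range overlapped that of Ezh1, 2084 to 2874 bp.

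Agreement between the marks was measured as the shared base pairs of a pair of libraries divided by the base pairs covered in either, over all 10 windows. It was 0.863 ± 0.0283 for pairs of different marks (SD, n = 4 pairs, which share libraries) and 0.861 for pairs of the same mark (0.855 and 0.866). The difference between these means was smaller than the spread between pairs. For PRC2 the means were 0.860 between marks and 0.860 within a mark, and for PRC1 they were 0.867 and 0.862. Per gene, agreement between marks was highest at Suz12 (0.979) and lowest at Jarid2 (0.767), Cbx7 (0.788) and Ezh1 (0.789), where the weak peaks varied. By their means, pairs of the same mark overlapped more at Ezh2, Cbx2 and Jarid2 (0.964, 0.966 and 0.772) than pairs of different marks (0.910, 0.93 and 0.767), and at the other 7 genes less. Only at Ezh2 (0.947 to 0.981 against 0.878 to 0.940) and Cbx2 (0.955 to 0.977 against 0.920 to 0.941) were the ranges separate. At Jarid2 (0.750 to 0.793 against 0.674 to 0.825) and at the other 7 genes they overlapped. The same count over all genes was not computed.

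The covered length was larger in both H3K9cr libraries than in either H3K9ac library at 3 of 10 genes (Ezh2, Cbx2 and Ring1), against 39.5% of all genes tested, and larger in both H3K9ac libraries at none, against 3.08%. For the length of the strongest peak the same 3 genes were higher in H3K9cr, against 34.5%, and Jarid2 was higher in H3K9ac, against 4.27%. Pileup percentiles were higher in both H3K9cr libraries at 4 genes (Jarid2, Cbx2, Cbx7 and Rnf2), against 32.4%, and in both H3K9ac libraries at 4 genes (Ezh1, Ezh2, Eed and Ring1), against 8.98%. These counts are of raw values, and the lists of H3K9cr covered more of the genome, 41.2 and 42.1 Mb against 36.4 and 40.0 Mb.

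The test across all 15149 genes, with limma on values centred on each library's median, called no Polycomb gene. For log2 covered length it called 0% of all genes in either direction at an adjusted p of 0.05 (0 genes, smallest limma adjusted p = 0.297), and 802 genes, 5.29%, had an unadjusted p under 0.05. None of these was a Polycomb gene. The differences (H3K9cr minus H3K9ac) ran from -0.13 at Mtf2 to 0.083 at Cbx7 with limma adjusted p from 0.882 to 0.968. The 95% intervals reached from -0.49 to 0.58 at Ezh1 and from -0.12 to 0.21 at Ezh2, so differences within such bounds could not be told from 0. The median over the 10 genes was 0.0132, beside -0.0128 over all genes.

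For the pileup rank, turned into a normal score, limma called 6 genes at an adjusted p of 0.05, all higher in H3K9cr (0.0396% of those tested) and 0% higher in H3K9ac. No Polycomb gene was among them. Without the adjustment 7.96% of all genes passed in either direction and 3.63% toward H3K9ac. The 3 Polycomb genes among the latter were of PRC2: Eed with a difference of -0.21 (SE 0.0623, limma adjusted p = 0.487), Ezh1 with -0.23 (SE 0.0717, limma adjusted p = 0.518) and Ezh2 with -0.20 (SE 0.0675, limma adjusted p = 0.537). Each ranked higher in both H3K9ac libraries, and none held after the adjustment. The other 7 genes lay between -0.11 at Ring1 and 0.14 at Suz12 and Cbx7. The median was -0.0364 over the 10 genes and 0.0029 over all genes.

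**Figure D3:**
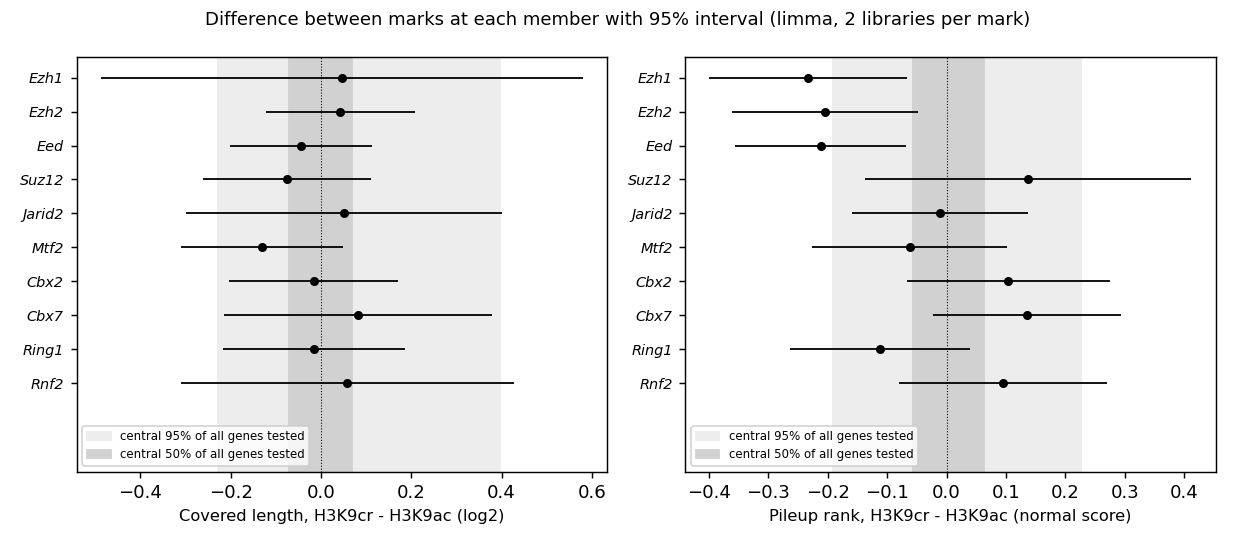
Difference between the marks (H3K9cr minus H3K9ac) in log2 covered length (left) and in the normal score of the pileup rank (right) for each gene, with the point at the estimate and the bar its 95% interval from limma, 2 libraries per mark. Grey bands hold the central 95% and the central 50% of all 15149 genes; the intervals of Ezh1, Ezh2 and Eed lie below 0 on the right, before adjustment for the number of genes, and every interval on the left crosses 0.

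By their medians, the 6 PRC2 genes ranked higher in pileup than the 4 PRC1 genes in every library. The windows of these PRC1 genes were covered over a longer stretch. The order in length did not hold for the further genes of the complexes, described below. The median pileup percentile of the 6 PRC2 genes was 95.7 and 94.8 in the H3K9cr replicates and 94.0 and 96.2 in the H3K9ac replicates. That of the 4 PRC1 genes was 89.2 and 88.9 for H3K9cr and 87.7 and 89.1 for H3K9ac. PRC1 minus PRC2 was -6.18 ± 0.409 percentile points (SD, n = 2) for H3K9cr and -6.73 ± 0.620 (SD, n = 2) for H3K9ac, so both marks showed the same order. The genes of the complexes overlapped, since Eed and Jarid2 of PRC2 ranked among the PRC1 genes. No test was made, as genes are not replicates. Ranked by fold enrichment in place of pileup, the difference was -0.728 ± 4.08 (SD, n = 2) for H3K9cr, where the order turned in 1 library, and -4.09 ± 3.96 (SD, n = 2) for H3K9ac. The fold enrichment itself differed by -15.5 and 8.53 between the medians in the H3K9cr replicates and by -22.5 and -2.58 in the H3K9ac replicates.

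The median covered length of the PRC1 genes was 5387.5 and 5114 bp for H3K9cr against 4926.5 and 5032.5 bp for H3K9ac. That of the PRC2 genes was 3104 and 3084 bp for H3K9cr against 2815 and 2996 bp for H3K9ac. On the log2 scale the difference was 0.76 ± 0.0475 (SD, n = 2) for H3K9cr and 0.78 ± 0.0417 (SD, n = 2) for H3K9ac. It was 0.41 and 0.27 when only the gene record without flanks was used, and 0.28 and 0.22 when peaks nearer to another gene were left out. The length of the strongest peak differed less, by 372.5 ± 163 bp for H3K9cr and 612 ± 214 bp for H3K9ac. Jarid2, a PRC2 gene, had both the longest peak and the largest covered length, so the order of the medians was not that of every gene.

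**Figure D4:**
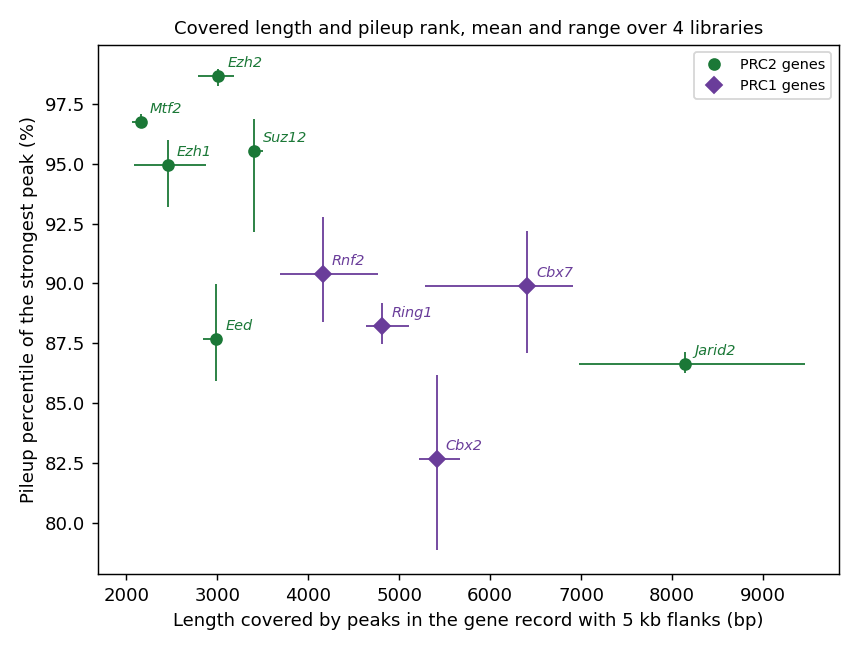
Mean pileup percentile of the strongest peak (vertical axis, %) against mean covered length of the gene window (horizontal axis, bp) for PRC2 genes (green circles) and PRC1 genes (purple diamonds), with bars for the range over 4 libraries. Ezh2, Mtf2, Ezh1 and Suz12 lie at the upper left, the PRC1 genes at larger covered length and lower rank, and Jarid2 (8144 bp) at the far right. Eed, a PRC2 gene, lies at the left with a small covered length (2990.5 bp) and a rank among those of the PRC1 genes (87.7).

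The other Polycomb genes were described by the same measures. All 19 further PRC1 genes, all 6 further PRC2 genes and all 4 genes of PR-DUB, the complex that removes ubiquitin from histone H2A, had peaks of both marks in every library. The median pileup percentile ranged over the libraries from 77.8 to 80.3 for the further PRC1 genes, from 79.4 to 82.5 for the further PRC2 genes and from 91.6 to 94.6 for PR-DUB. For the 10 subunit genes above it was 89.0 to 91.8, and for all genes with a peak in every library 76.2 to 78.3. The median covered length was 3601 to 3928 bp for the further PRC1 genes and 4360 to 4666.5 bp for the further PRC2 genes. Their strongest peaks had median lengths of 2645 to 2746 bp and 2976 to 3636.5 bp. In both lengths the order of PRC1 and PRC2 was the reverse of that among the 10 genes. Pcgf2, which pairs with the E3 ligases, ranked highest of the further PRC1 genes (98.2, median of the libraries), and Bcorl1, a corepressor of variant PRC1, lowest (46.8). Rbbp4, a histone-binding subunit, ranked highest of the further PRC2 genes (96.3) and the accessory subunit Phf19 lowest (65.2). In PR-DUB the deubiquitinase Bap1 ranked highest (98.8) and its partner Asxl3 lowest (60.2).

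None of these 29 genes differed between the marks at an adjusted p of 0.05 in either measure (smallest limma adjusted p = 0.882 for covered length and 0.571 for pileup rank). Without the adjustment 2 ranked higher in H3K9cr and 1 in H3K9ac in pileup, and none differed in covered length. The median difference in pileup rank was 0.023 over the 29 genes, and 15 of them lay above 0 and 14 below. Among other chromatin complexes, the 12 genes of H3K4 methyltransferase complexes had a median pileup percentile of 84.3 to 85.7 and the 17 genes of BAF remodelling complexes one of 90.3 to 91.9, so a median near 90 was not limited to the 10 Polycomb genes. The median length of the strongest peak was 2997.5 to 3236 bp for the 10 genes, 2463 to 2932 bp for BAF genes and 1845 to 2048 bp for all genes with a peak in every library.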

How the data were processed

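H3K9cr and H3K9ac were measured by native ChIP-seq in P19 cells, 2 libraries each, grouped and numbered as in the labels. Each library came with its own peak list. The submitters' processing notes name the build GRCm38, the aligner Bowtie2 (2.4.1) and the peak caller MACS2 (2.2.7.1). Neither options nor the control are given in the sources used here. Peak rows, per the file headers, hold a position, a length, a summit, a pileup (coverage signal at the summit), a fold enrichment ratio over local background, and a -log10 p-value and -log10 q-value, all from the authors' peak caller. The smallest deposited -log10 q was 2.02 to 2.06. Peak values were used to describe and rank peaks within a list, and ranks, lengths and positions were compared between lists. Fold enrichments, and the local backgrounds implied by them, were also set side by side between lists for single genes, as a description.

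Gene records and promoters came from RefSeq (GRCm38.p6). All 10 Polycomb genes were named; of the other Polycomb genes the highest and the lowest of each complex were named. The genes, lists and motifs were chosen with earlier results of these data known. Covered length is the base pairs of a gene window inside peaks. Genes with a peak in every library were fitted with limma 3.58.1 (R 4.3.3) on log2 covered length and on the normal score of the strongest peak's pileup rank, each centred on the library median, with Benjamini-Hochberg adjustment over all 15149 genes and a threshold of 0.05. Limma was run on simulated data: of 100 genes moved by 1 log2 unit of covered length among 15149, 61% were recovered, and of 100 moved by 2, 88%. For pileup normal scores these were 94% and 100%. Of the genes not moved, 9 were called for covered length and 7 for pileup normal scores. Both shifts were larger than the estimates at the 10 Polycomb genes, -0.13 to 0.083 in covered length and -0.23 to 0.14 in pileup. Recovery of differences that small was not tested. Agreement, medians and motif counts were computed with Python 3.11.15, numpy 2.4.6, pandas 2.3.3 and scipy 1.17.1. Read depth is unknown, so no interval for counting error can be given. Alternatives were other windows, peak filters and ranks, a fit with the replicate number as a block, and leaving out each library. The 2 inputs were not analysed here.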

Additional observations from a re-analysis of the deposited data

How the results depend on the processing

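With 2 libraries per mark and no read depth, small differences between the marks could not be told from 0. All 10 Polycomb genes kept peaks of both marks in every library under every alternative run. Leaving out a library could not have changed this count. Of 250 alternative values of the differences between marks at single genes, 222 kept their direction, 28 changed it, and none was called by limma. The values with the replicate block are among the 222, although with 2 libraries per mark the block leaves each estimate as it was.

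With the replicate block, covered length gave 0 calls and pileup rank 14. Same-numbered libraries correlated in their deviations by 0.104 for covered length and 0.0517 for pileup rank, over 2 pairs. Base-pair agreement over the windows was 0.876 for libraries with the same number and 0.861 for the same mark. The labels do not say what a number marks, and whether libraries with the same number share an input was not tested. Covered length gave 33 calls (27 toward H3K9cr, 6 toward H3K9ac) when genes with a peak in at least 1 library entered with 100 bp added. Calls on pileup rank, 6 as reported, were 11 without centring, 11 with equal numbers of peaks, 2 with peaks at least 50% inside the window, 0 when ranked by fold enrichment, and 12 to 232 when 1 library was left out: 12 without H3K9cr replicate 1, 14 without H3K9cr replicate 2, 40 without H3K9ac replicate 1 and 232 without H3K9ac replicate 2. The cause was not tested.

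PRC1 minus PRC2 in pileup percentile for H3K9cr was -6.71 with equal numbers of peaks and -9.15 without peaks nearer to another gene. The latter setting drops the strongest peak of Cbx7, which covers the Cbx7 start site. Ranked by fold enrichment, the difference was -0.728. For H3K9ac it was -10.5 without peaks nearer to another gene and -4.09 ranked by fold enrichment. In covered length PRC1 minus PRC2 was 2157 bp (H3K9cr) and 2074 bp (H3K9ac) untransformed, 0.41 and 0.27 on the log2 scale without flanks, and 0.28 and 0.22 without peaks nearer to another gene. Agreement of the same mark was 0.872 with a stricter peak threshold, 0.852 with peaks 50% inside, 0.848 without flanks, 0.871 with equal numbers and 0.881 without peaks nearer to another gene.

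The reversed differences between marks (H3K9cr minus H3K9ac, none called) were as follows for covered length. Ezh1 was -0.16 with equal numbers, -0.073 without flanks and -0.018 without peaks nearer to another gene. Ezh2 was -0.0085 without flanks. Without centring Eed was 0.048, Suz12 0.017, Cbx2 0.076 and Ring1 0.076. Cbx2 was 0.14 without flanks, 0.075 without peaks nearer to another gene and 127.5 bp untransformed, and Ring1 was 0.039 at the stricter threshold and 97 bp untransformed. Leaving out each library in turn gave -0.16 to 0.25 at Ezh1, -0.088 to 0.19 at Jarid2, -0.062 to 0.029 at Cbx2, -0.053 to 0.22 at Cbx7, -0.079 to 0.046 at Ring1 and -0.083 to 0.20 at Rnf2. For pileup rank Jarid2 was 0.033 without centring, and leaving out each library gave -0.060 to 0.34 at Suz12, -0.039 to 0.018 at Jarid2 and -0.13 to 0.0047 at Mtf2.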
